A study of Sus scrofa with 8 samples.

Results

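Keratins and the proteins of desmosomes are the main structural genes of skin epithelium, and here they were read in bulk RNA sequencing of pig limb muscle, library by library. The members are all rows of the deposited table whose symbol is KRT and a number, DSG, DSC or PKP and a number, DSP or JUP, whatever their level. This rule found 49 genes among 22516 rows, of which 36 are keratins and 13 are desmosome genes. KRT5, KRT14, KRT19 and KRT6A were matched to no row and are not analysed here, so the usual partner keratins of the basal layer are missing from every sum below. Of the keratin and desmosome symbols looked for, 19 had no matched row, so the families are not complete. The groups are wild type (WT) and a knockout (KO) of the muscle-determining factors MYF5, MYOD and MYF6, each at embryonic days 41 (E41) and 62 (E62), with 2 biological replicates per group. The growth protocol names day 60, not 62, for the later stage. All 4 groups are described as limb muscle tissue, and no treatment is given for any of them.

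Keratins are intermediate filament proteins. A type I and a type II chain pair to form a filament, and different pairs mark different layers and kinds of epithelium. Desmosomes are spot junctions in which cadherins (desmogleins, DSG, and desmocollins, DSC) hold neighbouring cells together, while plakoglobin (JUP), plakophilins (PKP) and desmoplakin (DSP) tie the cadherins to the keratin filaments. Skeletal muscle fibres build no desmosomes of the epidermal kind.

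In RefSeq's table for the Sscrofa11.1 assembly, 30 of the 36 keratins had a position, and they fall in 2 clusters. On chromosome 5, 14 keratins lie between 17482454 and 18221432, and on chromosome 12, 16 lie between 21124605 and 21778893. All 7 desmosomal cadherin genes lie between 114916759 and 115453763 on chromosome 6. Keratin genes within a cluster are close copies of one another, so estimated counts can be divided among them, and the values of KRT17, which has near-identical relatives, are uncertain for that reason.

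Library totals ran from 23402052 to 60539245 counts. Muscle genes set the genotypes apart: 11 skeletal muscle genes summed to between 13816 and 36556 CPM (the usual library-size unit, here with library totals scaled by the trimmed mean of M values, TMM) in the 4 wild-type libraries and to between 15.0 and 30.9 CPM in the 4 knockout libraries. Library names carry a separate number for every group, and the code LHL appears at WT E41 where RHL appears elsewhere, so litter or preparation cannot be told apart from group. KO E62 replicate 1 and replicate 2 differed widely in the genes described here, and each result that rests on them is given with this in view. Titles call the replicates biological, and the names of the KO E62 libraries carry different embryo codes. No label states outright that replicates of every group came from separate animals, so p-values measure only the spread between libraries. In bulk tissue, fewer epithelial cells and less RNA per epithelial cell cannot be told apart.

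Summed over all 36, keratins reached 1251 and 2581 CPM in the WT E41 libraries and 1949.7 and 1269 CPM in the KO E41 libraries. At E62 the sum was 26.1 and 28.7 CPM in wild type, and 1086 and 23.7 CPM in KO replicates 1 and 2. All 4 E41 libraries and 1 of the 4 E62 libraries therefore held summed keratins of 1086 CPM or more, and the other 3 E62 libraries held 28.7 CPM or less. The 11 desmosome genes other than JUP and PKP4 summed to 305.3 and 586.6 CPM in WT E41, 673.5 and 364.8 in KO E41, 21.7 and 18.1 in WT E62, and 419 and 54.1 in KO E62. KO E62 replicate 2 lay level with wild type in summed keratins but above both wild-type libraries in summed desmosome genes.

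**Figure D1:**
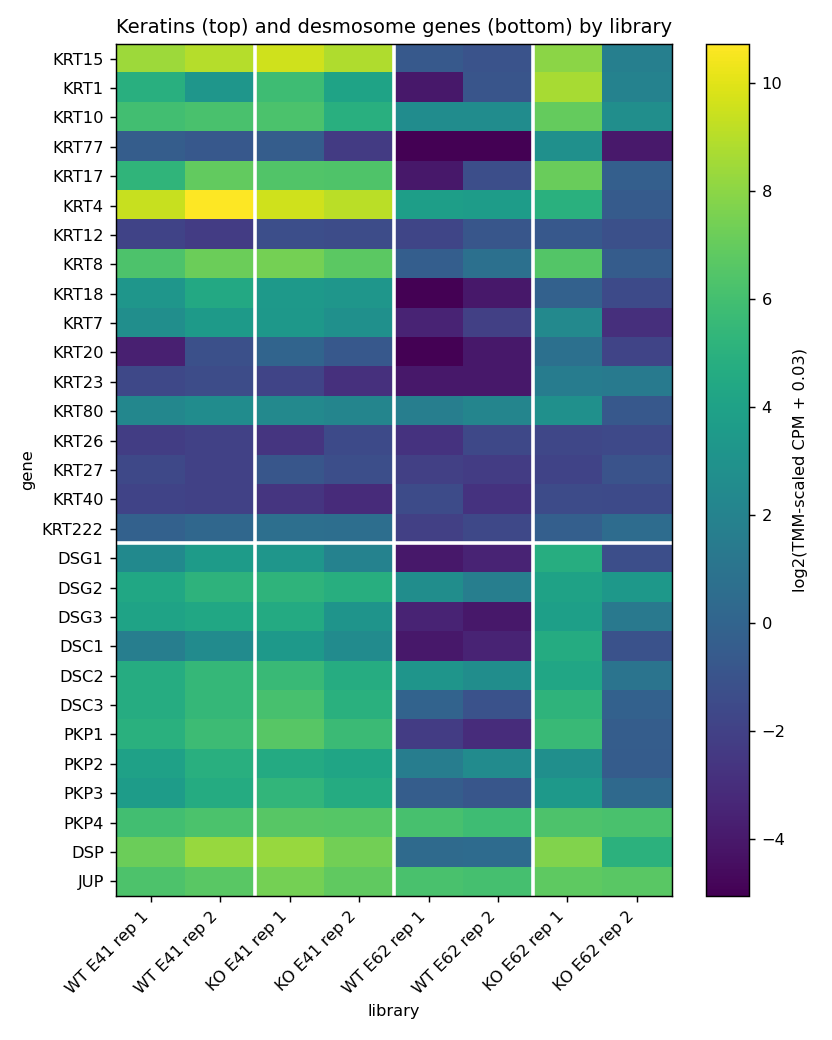
Level of each of the 29 members that passed the low-count filter (rows) in each of the 8 libraries (columns), coloured by log2 of TMM-scaled CPM plus 0.03. Keratins are above the horizontal white line and desmosome genes below it. Most rows are bright in the 4 E41 libraries and in KO E62 replicate 1 and dark in WT E62, while PKP4 and JUP are bright in all 8.

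Low counts removed 20 members before testing: 29 passed a filter of about 0.25 CPM in at least 2 libraries, 17 keratins and 12 desmosome genes, and none of them passed through 1 group alone. KRT71 and KRT84, keratins of the hair follicle, had 0 counts in every library. KRT79, found in the ducts of sebaceous glands, did not pass, yet it had 311 counts in KO E62 replicate 1, 3 in replicate 2, and at most 1 in any other library. The remaining members that did not pass were mostly keratins of the hair shaft and inner root sheath (KRT25, KRT28, KRT32, KRT35, KRT36, KRT39, KRT72 to KRT75, KRT82 and KRT85), with KRT2, KRT3, KRT24, KRT78 and DSG4 beside them. None of these had more than 17 counts in any library.

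KRT15 is a type I keratin of basal epidermal cells, the dividing layer next to the dermis. Its level was 339.6 and 493 CPM in WT E41, 771 and 459 in KO E41, 0.602 and 0.471 in WT E62, and 258 and 3.34 in KO E62. Both WT E62 libraries were far below all 4 E41 libraries, and the KO E62 libraries lay on either side of this gap. KRT15 differed between knockout and wild type by a log2 change of 7.92 ± 2.44 (SE) at E62, which did not pass the threshold (edgeR quasi-likelihood test with Benjamini-Hochberg adjustment over all genes, used for every adjusted p here, adjusted p = 0.052, n = 2 libraries per group). It passed with DESeq2, library size alone and a filter of 1 CPM in 2 libraries, and in no other fit of all 8 libraries. The change was 2.62 without KO E62 replicate 1 and 8.90 without replicate 2.

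KRT1 and KRT10 are the type II and type I pair that epidermal cells switch on when they leave the basal layer. The KRT1 level was 29.7 and 9.56 CPM in WT E41, 57.2 and 17.3 in KO E41, 0.0301 and 0.501 in WT E62, and 404 and 3.77 in KO E62. KO E62 replicate 1 thus had the highest KRT1 of the 8 libraries, above every E41 library. For KRT10 the values were 62.4 and 74.7 CPM, 77.5 and 29.9, 6.17 and 6.04, and 129 and 6.71 in the same order of groups, so that KO E62 replicate 2 was close to wild type. KRT77, another type II keratin of suprabasal cells, had 0 counts in both WT E62 libraries, 501 in KO E62 replicate 1 and 2 in replicate 2. With a floor of 3 counts over the wild-type group it was at least 88.2-fold higher in the knockout, a value carried by replicate 1 (adjusted p = 0.098). At E62 the log2 change was 9.56 ± 3.09 for KRT1 (adjusted p = 0.059) and 3.48 ± 1.46 for KRT10 (adjusted p = 0.11). None of these 3 suprabasal keratins passed the threshold at either stage.

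KRT4, a type II keratin of moist stratified linings such as the mouth and oesophagus, was at 675.8 and 1694 CPM in WT E41, 756 and 546 in KO E41, 13.7 and 12.9 in WT E62, and 31.7 and 0.667 in KO E62. Unlike KRT15, KRT4 kept more than 10 CPM in both WT E62 libraries, above KO E62 replicate 2. Its log2 change at E62 was 0.28 ± 1.49 (adjusted p = 0.89), and without KO E62 replicate 1 it became -4.32 (adjusted p = 0.013), so the direction rests on which knockout library is used. KRT17, a type I keratin of early embryonic epidermis and skin appendages, stood at 39.0 and 123 CPM, 87 and 83.5, 0.0301 and 0.383, and 138 and 0.784 in the same order. Here too KO E62 replicate 1 was above all other libraries, and the log2 change of 8.36 ± 3.04 at E62 missed the threshold (adjusted p = 0.081). The corneal keratin KRT12 lay between 0.177 and 0.59 CPM in all 8 libraries.

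Simple epithelial keratins did not behave as 1 group. KRT8 and KRT18 are the type II and type I partners of single-layered epithelia and of the outermost cells of the embryonic skin, and they are neighbours on chromosome 5 (KRT8 from 18172423 to 18180277, KRT18 from 18217686 to 18221432). KRT8 was 80.9 and 143 CPM in WT E41, 169 and 108 in KO E41, 0.752 and 1.71 in WT E62, and 92.1 and 0.684 in KO E62. KRT18 was 9.42 and 22.0 CPM in WT E41, 10.7 and 9.36 in KO E41, 0 and 0.0294 in WT E62, and 0.87 and 0.317 in KO E62. In KO E62 replicate 1, KRT8 was within its E41 range while KRT18 was below all of its E41 values, with 6243 KRT8 counts beside 59 of KRT18. The count ratio of KRT8 to KRT18 was 8.59 and 6.52 in WT E41, 15.8 and 11.5 in KO E41, 106 in KO E62 replicate 1 and 2.16 in replicate 2.

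At E62, 4 of 17 tested keratins were called higher in the knockout, near the 21.0% of all genes, and KRT18 was 1 of them. Its 78 counts over both knockout libraries against 1 in wild type gave a 41.05-fold higher level (95% Clopper-Pearson interval 7.15 to 1642, counting error only, adjusted p = 0.012). KRT20, a keratin of gut lining and of the touch-sensing Merkel cells, had 1 and 9 counts in WT E41, 45 and 27 in KO E41, 0 and 1 in WT E62, and 113 and 15 in KO E62. It was 67.4-fold higher in the knockout at E62 (interval 11.9 to 2681, adjusted p = 0.018), and most of its knockout counts came from replicate 1. The KRT20 call was lost without KO E62 replicate 1, where the log2 change went from 5.75 to 3.80 (adjusted p = 0.077), and without WT E62 replicate 1 (0.11) or replicate 2 (0.064). KRT7, of glandular epithelia, ranged from 6.62 to 11.5 CPM over the E41 libraries and was 0.0602 and 0.206 CPM in WT E62 and 5.19 and 0.1 in KO E62. KRT80 ranged from 4.34 to 6.1 CPM at E41 and was 3.19 and 4.33 CPM in WT E62 against 7.16 and 0.584 in KO E62.

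KRT23, a type I keratin, had a pattern unlike that of the epidermal keratins. It was 0.29 and 0.354 CPM in WT E41, 0.258 and 0.109 in KO E41, 0.0301 and 0.0294 in WT E62, and 2.94 and 2.7 in KO E62. Both KO E62 libraries were above all other 6 libraries, at nearly the same level, although KRT15 differed 77.2-fold between them. With 361 counts against 2, KRT23 was 95-fold higher in the knockout at E62 (interval 26.1 to 787, adjusted p = 2e-04), and it rose from E41 to E62 in the knockout by 3.92 ± 0.51 (adjusted p = 0.0022). In wild type it fell by 3.31 ± 0.74 between the stages on the log2 scale (14 counts to 2, adjusted p = 0.010). KRT23 kept its direction and its call in the knockout comparison at E62, the stage comparison of the knockout and the difference between stages under every alternative tried.

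KRT222, a keratin-like gene at the edge of the chromosome 12 cluster, was 0.87 and 1.11 CPM in WT E41, 1.59 and 1.54 in KO E41, 0.211 and 0.294 in WT E62 and 0.797 and 1.4 in KO E62. It was higher in the knockout at E62 by 2.11 ± 0.48 (adjusted p = 0.0086), and here KO E62 replicate 2 was the higher of the pair. Inner root sheath keratins KRT26 and KRT27 and the hair cuticle keratin KRT40 stayed under 0.6 CPM everywhere, and none of the 3 passed the test in any comparison.

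Among desmosomal cadherins, DSG1 and DSC1 belong to the upper layers of the epidermis and DSG3 and DSC3 to the lower ones. DSG1 was 5.46 and 12.1 CPM in WT E41, 9.47 and 3.76 in KO E41, 0.0301 and 0.0589 in WT E62, and 26.8 and 0.384 in KO E62. DSC1 was 3.14 and 5.88, 10.5 and 5.84, 0.0301 and 0.0589, and 24.8 and 0.434 CPM in the same order. For both genes KO E62 replicate 1 held the highest level of all libraries, and both WT E62 libraries together had 3 counts. At E62, DSC1 was 299.8-fold higher in the knockout (interval 102 to 1455, adjusted p = 0.049) and DSG1 323-fold higher (interval 110.3 to 1567, adjusted p = 0.061), and only DSC1 was under the threshold of 0.05. Both values were carried by KO E62 replicate 1, with 1683 of 1709 knockout counts of DSC1 and 1818 of 1841 of DSG1. Without that library the log2 change of DSC1 went from 8.05 to 3.18 (adjusted p = 0.024).

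DSG3, the lower-layer desmoglein, was 17.4 and 20.4 CPM in WT E41, 24.2 and 8.53 in KO E41, 0.0602 and 0.0294 in WT E62, and 14.2 and 2.52 in KO E62. The KO E62 libraries were both above wild type and differed 5.63-fold, less than DSG1 with 69.9-fold. DSG3 was 195-fold higher in the knockout at E62 (interval 66.6 to 947, adjusted p = 0.011). DSC3 was 26.6 and 42.9, 69.0 and 31.6, 0.932 and 0.442, and 37.3 and 0.868 CPM, and its groups overlapped at E62 (log2 change 4.80 ± 1.97, adjusted p = 0.11).

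DSG2 and DSC2 are the cadherins of simple epithelia and of heart muscle junctions. DSG2 was 20.7 and 35.5 CPM in WT E41, 37.1 and 28.4 in KO E41, 6.32 and 3.15 in WT E62 and 16.2 and 10.4 in KO E62. It was higher in the knockout at E62 by 1.49 ± 0.43 (adjusted p = 0.032), and its 2 KO E62 libraries differed only 1.55-fold. DSC2 was 25.9 and 44.7, 49.5 and 25.7, 9.11 and 6.42, and 19.4 and 1.95 CPM, with KO E62 replicate 2 below both wild-type libraries.

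Plakophilins PKP1 and PKP3 strengthen desmosomes of stratified epithelia, PKP2 serves simple epithelia and heart, and PKP4 is found mainly at other cell junctions. PKP1 was 31.6 and 55.3 CPM in WT E41, 99.4 and 52.7 in KO E41, 0.18 and 0.0883 in WT E62, and 50.5 and 0.734 in KO E62. Its log2 change at E62 was 7.55 ± 2.68 (adjusted p = 0.076), and that of PKP3, at 0.722 and 0.53 CPM in wild type against 11.2 and 1.25, was 3.32 ± 1.21 (adjusted p = 0.075). PKP2 was 3.10 and 5.95 CPM in WT E62 and 6.83 and 0.701 in KO E62, with overlapping groups. PKP4 lay between 56.5 and 98.5 CPM in all 8 libraries, and it was higher in the knockout at E41 by 0.50 ± 0.14 (adjusted p = 0.025).

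DSP, which anchors keratin filaments to the junction, was 146 and 314 CPM in WT E41, 310.5 and 164 in KO E41, 1.26 and 1.35 in WT E62, and 212 and 34.6 in KO E62. Both KO E62 libraries were above wild type, and replicate 2 kept this DSP level while its KRT15 was 3.34 CPM and its KRT8 0.684 CPM. At E62 the log2 change was 6.55 ± 1.24 (adjusted p = 0.011). JUP, shared by desmosomes and the adherens junctions of many cell types, lay between 66.6 and 173 CPM in all libraries. It was higher in the knockout by 0.67 ± 0.19 at E41 (adjusted p = 0.030) and by 0.60 ± 0.19 at E62 (adjusted p = 0.038).

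At E41 the knockout and wild type overlapped in most of these genes. JUP and PKP4 were higher and 0 of 29 members lower, against 18.5% higher and 20.8% lower, 39.2% in all, of the 17020 genes tested. None of the 17 keratins was called, also at an unadjusted p under 0.05 and with DESeq2 and limma-voom. The log2 change was 0.56 ± 1.63 for KRT15 and -0.86 ± 1.45 for KRT4, and the groups were apart upward for 6 members (40.1% of all genes) and downward for 2 (33.3%). JUP lost its call without KO E41 replicate 1 (adjusted p = 0.16) and without WT E41 replicate 1 (0.13), and PKP4 without KO E41 replicate 1 (0.11), KO E41 replicate 2 (0.079) and WT E41 replicate 1 (0.10).

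At E62, 9 of 29 members were higher in the knockout and 0 lower, against 21.0% and 26.2% of all genes, or 47.2% in either direction. The 9 were KRT18, KRT20, KRT23, KRT222, DSG2, DSG3, DSC1, DSP and JUP. With DESeq2, 20 members were higher and 0 lower, where 4003 and 4254 of all genes were. With limma-voom the members were 3 and 0, and all genes 3588 and 4631. Of the members, 0 were lower at an unadjusted p under 0.05 with each of the 3 tools. The median log2 change of the 29 was 4.28, also with the 7 members of 3 or fewer wild-type counts at their ratio or bound, beside a median of 0.06 over all genes. The knockout libraries were both above both wild-type libraries for 19 members, where 40.1% of all genes did so, and below them for 0 (37.3%). In KRT4, KRT8, KRT80, DSC2 and PKP2, KO E62 replicate 1 was above both wild-type libraries and replicate 2 was below both.

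**Figure D2:**
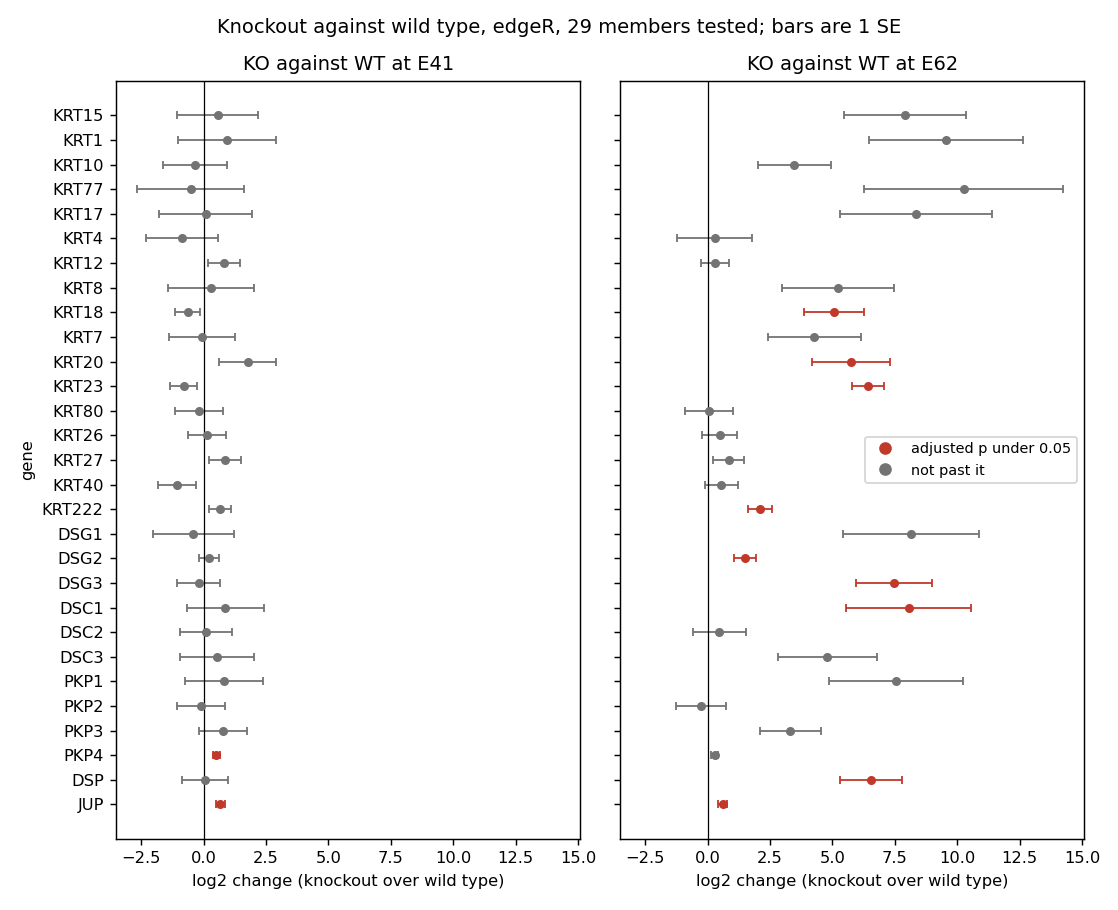
Log2 change of knockout over wild type for the 29 tested members at E41 (left) and E62 (right), with bars of 1 SE and red points for adjusted p under 0.05. At E41 the points lie near 0 with JUP and PKP4 in red. At E62 most lie to the right of 0 with wide bars, and 9 are red, among them KRT23 at 6.43 with a narrow bar.

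The count at E62 depended on single libraries. Leaving out KO E62 replicate 2 gave 22 members higher and 0 lower, and leaving out KO E62 replicate 1 gave 7 higher and 3 lower. Without WT E62 replicate 1 there were 2 calls and without WT E62 replicate 2 there were 3. DSG3, DSP, DSC1 and KRT20 lost their calls without either WT E62 library. KRT18 and KRT222 lost theirs without WT E62 replicate 1 (adjusted p = 0.080 and 0.059), DSG2 without KO E62 replicate 1 (0.12) or WT E62 replicate 2 (0.11), and JUP without any 1 of the 4 E62 libraries (adjusted p from 0.077 to 0.16). In fits that lack 1 of a pair, the lone library is assumed to vary like the other groups. KRT8 and KRT7 changed direction without KO E62 replicate 1 (KRT8 from 5.23 to -0.85, KRT7 from 4.28 to -0.41), and neither passed the threshold with both libraries (adjusted p = 0.12 and 0.11).

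A test of the difference between the knockout effects at E62 and E41 called 4 of 29 members higher and 0 lower (0 at an unadjusted p under 0.05 by edgeR, DESeq2 or limma-voom), against 11.2% and 15.5%, together 26.8%, of all genes. The difference was 7.66 ± 1.82 for DSG3 (adjusted p = 0.032), 6.51 ± 1.51 for DSP (0.036), 5.72 ± 1.32 for KRT18 (0.021) and 7.23 ± 0.88 for KRT23 (0.0017), all on the log2 scale. For KRT15 it was 7.36 ± 2.89 (0.13) and for KRT1 8.63 ± 3.62 (0.15). Without KO E62 replicate 2 the count was 16, and it was 1 or 2 without any single wild-type or KO E41 library.

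In wild type, KRT15, KRT4, KRT18, KRT23, KRT222, DSG2, DSG3, DSP and PKP3 fell from E41 to E62. Of 29 members, 9 were lower and 0 higher at E62 (0 higher at an unadjusted p under 0.05 by edgeR, DESeq2 or limma-voom). Of all 17020 genes, 3409 were lower and 3373 (19.8%) higher, 39.8% in either direction. Both E62 libraries were below both E41 libraries for 25 members, as for 34.3% of all genes. The log2 change was -9.59 ± 2.55 for KRT15 (adjusted p = 0.040) and -6.47 ± 1.84 for KRT4 (0.048). It was -7.46 ± 1.28 for DSP (0.011), -4.92 ± 1.24 for PKP3 (0.030) and -2.57 ± 0.45 for DSG2 (0.0064). KRT222 fell by 1.96 on the log2 scale (SE 0.50, adjusted p = 0.017). For KRT18, 692 counts at E41 stood against 1 at E62, a level 1074-fold lower (interval 192 to 42479, adjusted p = 8e-04). DSG3 was 425-fold lower (interval 145 to 2064, adjusted p = 0.0087).

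Others had large wild-type differences that missed the threshold in the fit of all 4 groups: KRT8 at -6.50 ± 2.34 (adjusted p = 0.087), PKP1 at -8.31 ± 2.68 (0.067), KRT17 at -8.58 ± 3.06 (0.085) and KRT1 at -6.18 ± 3.01 (0.17). When only the wild-type libraries were fitted, 20 members were lower and KRT8, PKP1, KRT17 and KRT1 were among them. Over all genes that fit called 3127 lower and 2833 higher. Without WT E62 replicate 1 the count was 3, without WT E62 replicate 2 it was 2, and without WT E41 replicate 2 it was 5. KRT15 lost its call without any 1 of the 4 wild-type libraries (adjusted p from 0.073 to 0.19), and so did KRT4 and PKP3. JUP, PKP4, KRT12, KRT26, KRT27, KRT40 and KRT80 showed no called change with stage in wild type.

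In the knockout, 1 of 29 members rose and 1 fell between the stages, against 12.1% and 18.0% of all genes, 30.1% in all. Groups were apart upward for 3 members and downward for 13, against 34.7% and 40.6% of all genes. KRT23 rose, as above, and KRT18 fell by 4.06 (SE 0.60, adjusted p = 0.0043). KRT4 stood at -5.33 ± 1.74 (adjusted p = 0.081), KRT15 at -2.24 ± 1.70 (0.37) and KRT1 at 2.45 ± 1.98 (0.39). Leaving out KO E62 replicate 1 gave 17 members lower and 1 higher, with KRT1 at -3.31, while leaving out replicate 2 gave 2 lower and 4 higher.

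In 3 of the 4 groups, 1 library was higher in nearly all of these genes at once. Among members with at least 20 counts over a pair, KO E62 replicate 1 was above replicate 2 in 26 of 29, with a median ratio of 9.75 and a highest ratio of 221 for KRT77, and 13 members differed over 10-fold. KO E41 replicate 1 was above replicate 2 in 26 of 27, with a median of 1.56. WT E41 replicate 2 was above replicate 1 in 21 of 23 (median ratio of replicate 1 to 2 of 0.579), and the exceptions were KRT1, 3.10-fold higher in replicate 1, and KRT77. In WT E62 the pair was mixed, with replicate 1 higher in 9 and replicate 2 in 5 of 14 (median 1.08). The 3 members that were not higher in KO E62 replicate 1 were KRT222, KRT26 and KRT27. Genes near a ratio of 1 in that pair were KRT23 (1.09), JUP (1.08), PKP4 (1.11) and KRT40 (1.07), with DSG2 at 1.55.

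**Figure D3:**
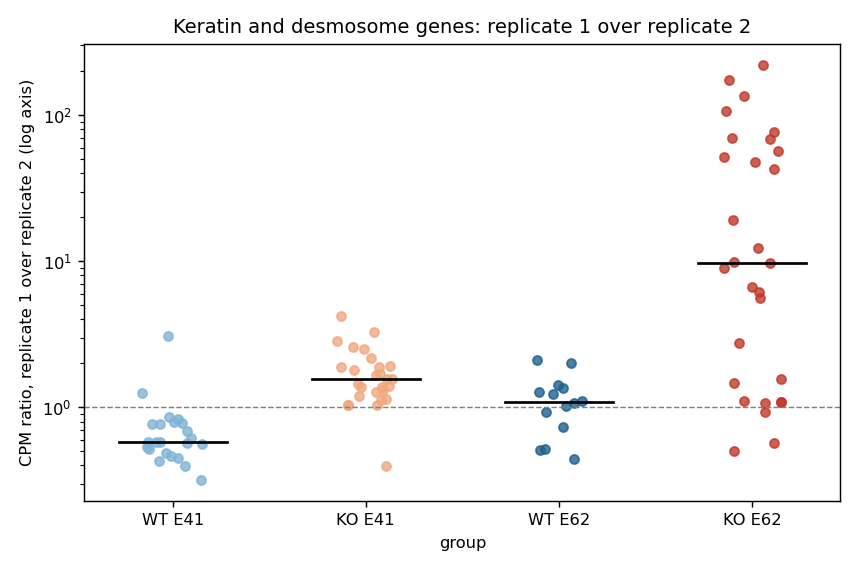
Ratio of CPM in replicate 1 to replicate 2 (log axis) for each member with at least 20 counts over the pair, by group, with black lines at the medians. The KO E62 points spread from 0.505 to 221, while all points of the other groups lie between 0.318 and 4.21.

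Counts of each member were also set against the KRT15 counts of the same library, which compares the make-up of the keratin transcripts and not their amount. KRT1 counts were 8.73% and 1.94% of KRT15 counts in WT E41, 7.42% and 3.77% in KO E41, and 157% and 113% in KO E62. KRT10 was 18.4%, 15.2%, 10.1% and 6.51% of KRT15 in the E41 libraries and 50.2% and 201% in the KO E62 pair. Both percents were higher in the KO E62 libraries than in any E41 library. In replicate 2 they rest on 226 counts of KRT1, 402 of KRT10 and 200 of KRT15, and its KRT10 level of 6.71 CPM was close to the 6.17 and 6.04 CPM of WT E62, where KRT10 was 1025% and 1281% of KRT15.

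KRT4 was lower in the KO E62 pair, with 199% and 344% of KRT15 in WT E41, 98.0% and 119% in KO E41 and 12.3% and 20% in KO E62. The upper-layer cadherins DSG1 (0.818% to 2.45% at E41, 10.4% and 11.5% in KO E62) and DSC1 (0.925% to 1.37%, then 9.64% and 13.0%) were, like KRT1, higher in both KO E62 libraries than in any E41 library. The lower-layer cadherin DSC3 was higher too, with 6.89% to 8.94% at E41 and 14.5% and 26% in KO E62. PKP1 was between 9.32% and 12.9% at E41 and 19.6% and 22.0% in KO E62. DSG3, DSP, JUP, PKP4, KRT12, KRT20, KRT23, KRT26, KRT27, KRT40, KRT77 and KRT80 were also above every E41 library in both KO E62 libraries. DSC2, DSG2, PKP2, PKP3, KRT7, KRT17, KRT18 and KRT222 were not. A higher percent of KRT15 was therefore not limited to upper-layer genes. KRT8 overlapped, with 21.8% to 29.1% at E41 and 35.7% and 20.5% in KO E62. In WT E62, KRT15 had only 20 and 16 counts, so its percents there are imprecise. No test was made of these ratios.

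**Figure D4:**
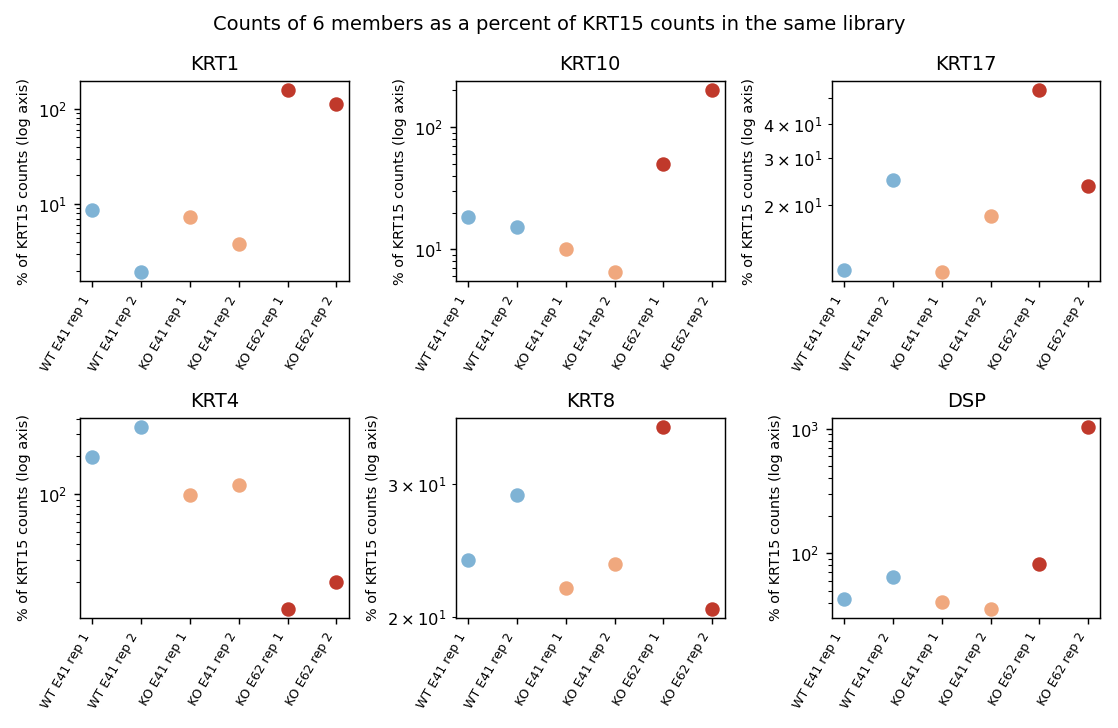
Counts of 6 members as a percent of KRT15 counts in the same library (log axes that differ between panels), for the 4 E41 libraries and the 2 KO E62 libraries, 1 point per library. KRT1 and KRT10 are higher in both KO E62 libraries than in every E41 library, KRT4 is lower, KRT8 overlaps, and DSP is highest in KO E62 replicate 2 at 1036%.

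Other genes of epithelium, taken from lists that leave out the members, had the keratin pattern in some lists and not in others. The 28 genes of the cornified envelope and barrier summed to between 146 and 243 CPM in the E41 libraries, to 17.7 and 19.1 CPM in WT E62 and to 201 and 36.2 CPM in KO E62. Of 22 tested, 8 were higher and 0 lower in the knockout at E62 (21.0% and 26.2% of all genes), and 1 was higher at E41 (18.5% of all genes). Of 23 epithelial adherens and tight junction genes, 8 were higher and 4 lower in the knockout at E62 (21.0% and 26.2% of all genes). In wild type, 14 of the 23 were lower and 0 higher at E62, against 3409 lower and 3373 higher of all 17020 genes. Of 22 epidermal regulators 5 were higher and 1 lower in the knockout at E62 (21.0% and 26.2% of all genes). The share higher was near that of all genes, as it was for the tested keratins. Their median log2 change at E62 was 3.21, beside 0.06 over all genes. In wild type, 7 of the 22 regulators were lower and 0 higher at E62, with a median log2 change of -4.24. The 14 hemidesmosome and basement membrane genes went another way: they summed to 897 to 1278 CPM at E41, 1108 and 1454 in WT E62, and 965 and 716 in KO E62, and 3 were higher and 4 lower in the knockout at E62, near the shares of all genes. In that list COL17A1, a hemidesmosome collagen of basal cells, was 59.1 to 190 CPM at E41, 0.301 and 0.265 in WT E62, and 145 and 1.27 in KO E62 (adjusted p = 0.069). PLEC, which links filaments to hemidesmosomes and is also made in muscle, was lower in the knockout at E62 (log2 change -1.60 ± 0.18, adjusted p = 3e-04), as was the integrin ITGA6 (-1.22 ± 0.19, adjusted p = 0.0019). SFN, a checkpoint protein of stratified epithelia, was 30.6 to 62.9 CPM at E41, 0.15 and 0.147 CPM in WT E62, and 19.9 and 0.317 CPM in KO E62.

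TP63, the master regulator of stratified epithelia, stood between 30.7 and 84.8 CPM at E41, at 8.75 and 9.04 CPM in WT E62, and at 39.6 and 0.534 CPM in KO E62, so that KO E62 replicate 2 lay below wild type. In the hair placode and follicle list, 8 of 13 genes were higher and 1 lower in the knockout at E62, against 21.0% and 26.2% of all genes. Its member LEF1, a Wnt pathway factor that dermal cells also express, was 1.98 and 1.77 CPM in WT E62 against 54.2 and 19.1 in the knockout (log2 change 4.29 ± 0.68, adjusted p = 0.0046).

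Markers of other cell types moved with the keratins in part, and their share in the results was not tested. Melanocyte genes, 11 of 12 found and none of them at 0 throughout, summed to 105 to 213 CPM at E41, 86.7 and 75.7 in WT E62 and 104 and 72.3 in KO E62. PMEL, which builds the pigment granule, was 9.13 to 74.7 CPM at E41, 0.12 and 0.118 in WT E62 and 18.9 and 0.567 in KO E62. DCT, of the same list, was 11.7 to 29.5 CPM at E41, 3.07 and 2.65 in WT E62 and 20.1 and 6.79 in KO E62. It was higher in the knockout at E62 by 2.23 ± 0.53 (adjusted p = 0.016). SOX10, a neural crest factor, did not move so, with 8 and 8.72 CPM in WT E62 and 5.09 and 5.22 in KO E62. The receptor KIT lay between 29.4 and 45.3 CPM in all 8 libraries. Merkel cell genes, 5 of 7 found, summed to 58.1 to 169 CPM at E41, 52.1 and 85.8 in WT E62 and 168 and 137 in KO E62. PIEZO2 held most of each sum: 49.0 to 162 CPM at E41, 49.9 and 83.5 in WT E62, 156 and 137 in KO E62. CHGA was 0.932 and 0.677 CPM in WT E62 and 9.15 and 0.501 in KO E62. ISL1 was 1.29 and 1.59 CPM in WT E62 and 1.17 and 0.167 in KO E62. The defining factor of Merkel cells, ATOH1, was 1.28 CPM in KO E62 replicate 1 and 0 in replicate 2. Mesothelial genes, 4 of 7 found, summed to 8.16 to 11.5 CPM at E41, 0.842 and 0.854 in WT E62, 52.3 in KO E62 replicate 1 and 0.601 in replicate 2. Among them WT1, a factor of mesothelium and kidney, and UPK3B, a mesothelial surface protein, were 11 and 14.4 CPM in KO E62 replicate 1 and at most 0.487 and 0.541 CPM in every other library. BNC1, a factor that keratinocytes share with mesothelium, was 26.9 CPM in that library and 7.10 to 10.3 CPM at E41. CALB2, the remaining mesothelial gene found, was not high there: 0.0738 CPM in KO E62 replicate 1 and 0.117 in replicate 2. At E41 it ranged from 0.0442 to 1.65 CPM. For 12 dermal fibroblast genes the sum in the KO E62 libraries was 67436 and 73354 CPM, the highest of all groups and slightly higher in replicate 2, and the endothelial sum was 1086 and 1751 CPM.

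**Figure D5:**
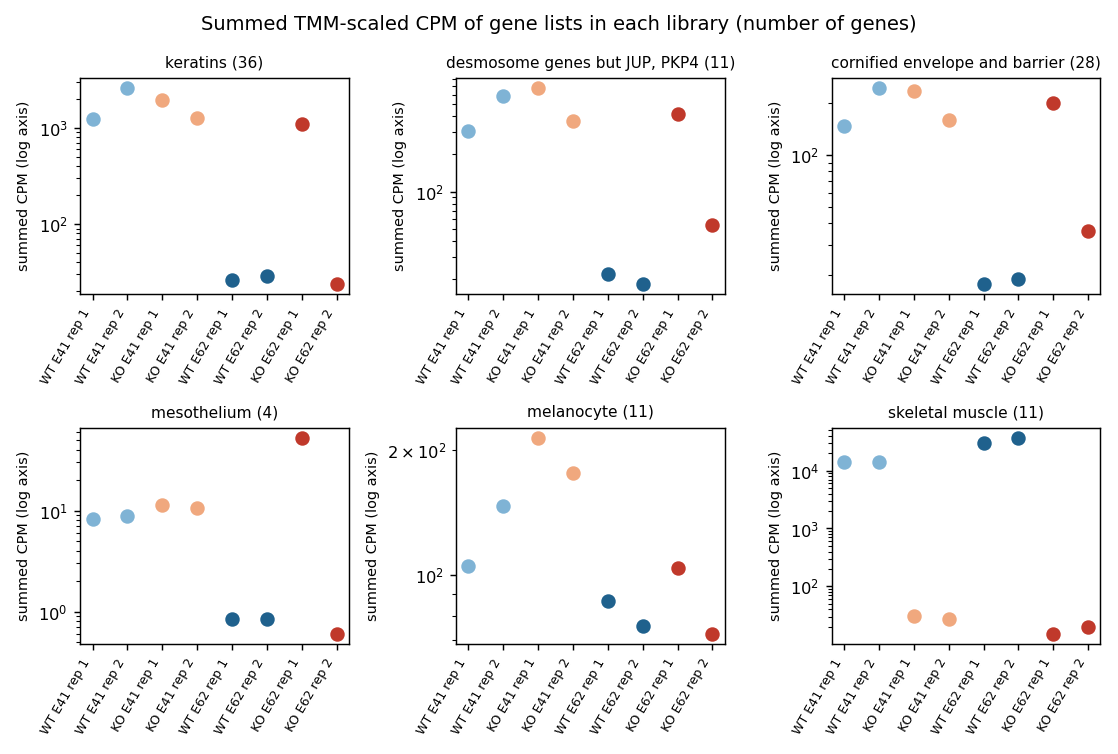
Summed TMM-scaled CPM (log axes that differ between panels) of keratins, desmosome genes without JUP and PKP4, and 4 lists of other genes, 1 point per library. Keratins, desmosome genes and barrier genes share a high level in the E41 libraries and KO E62 replicate 1. Mesothelial genes are highest in KO E62 replicate 1 at 52.3 CPM, and skeletal muscle genes separate the genotypes.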

How the data were processed

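The 8 bulk RNA sequencing libraries of pig embryonic limb muscle were grouped by their titles, with 2 in every group. The authors deposited 1 table of estimated counts (expected counts) per gene, whole numbers that are not normalized. In the submitters' processing notes the tools are kallisto and DESeq2, and Sscrofa11.1 and susScr11 are the builds. Per the labels' protocols, a TruSeq RNA or Stranded mRNA kit was used. For annotation release, strand setting and filters, the value is not given in the sources used here. Symbols were found for 15527 of 22516 identifiers (69.0%). No sequences were used.

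Rounded counts passed filterByExpr (minimum count 10) and were TMM-scaled. A model in which every group had its own mean was fitted to the 8 libraries by edgeR 4.0.16 under R 4.3.3. Genes tested numbered 17020 and held at least 99.98% of each library's counts. Two-sided quasi-likelihood F tests were used, and a gene was called at an adjusted p (Benjamini-Hochberg, all tested genes) under 0.05. SE is the log2 change over the square root of F. Members and lists were chosen with earlier results of these data known. All members are named. From other lists, the 4 tested genes of highest mean CPM could be named. Alternatives were DESeq2 1.42.0, limma-voom (limma 3.58.1), relative log expression factors, library size alone, no low-count filter, at least 1 CPM in 2 libraries, the replicate block, only the groups compared, and each library left out. The fit was also run on simulated counts with the same modest spread for every gene. That setting lacks the wide replicate differences of KO E62, so it cannot vouch for these members. Counts of the 2 replicates of a group had a chi-square of 31.8 to 70.0 per degree of freedom, beyond sampling noise, so each library counts once. A group with 0 counts takes a floor of 3 counts over the group.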

Additional observations from a re-analysis of the deposited data

Results flagged for a closer look

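For 4 members the effect of the knockout differed between the stages by the interaction test of edgeR (n = 2 libraries per group). DSG3 differed by 7.66, DSP by 6.51, KRT18 by 5.72 and KRT23 by 7.23 on the log2 scale (E62 minus E41). In DSG3, DSP and KRT18 the groups overlapped at E41, and in KRT23 both knockout E41 libraries were below wild type, while in all 4 genes both knockout E62 libraries were above wild type. KRT23 kept its call under all 15 alternatives, DSG3 under 8, DSP under 6 and KRT18 under 9. With groups of 2, no library could be examined as an outlier.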

How the results depend on the processing

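Of 145 tests of members, 26 passed the threshold. Over the alternatives these kept their call 239 times, lost it 84 times and never changed direction, while tests that had not passed gained a call 95 times and changed sign 102 times. The causes were not tested. Calls among members at E41 were 2, and 1 with the replicate block or only the groups compared. At E62 they were 9, against 20 with DESeq2 and 3 with limma-voom. The difference between stages gave 4, against 12 with DESeq2, 1 with limma-voom and 2 with no low-count filter. The wild-type stage comparison gave 9, against 19 with DESeq2, 5 with limma-voom and 20 with only the groups compared. The knockout stage comparison gave 2, against 4 with DESeq2 and 5 with limma-voom. Leaving out each library in turn gave 0 to 2 calls at E41, 2 to 22 at E62, 1 to 16 for the difference, 2 to 7 in wild type and 2 to 18 in the knockout. Over all genes the same step gave 3927 to 5031 at E41, 5816 to 6798 at E62, 2499 to 4282 for the difference, 4491 to 5182 in wild type and 1906 to 4278 in the knockout, where the full fits gave 6678, 8028, 4553, 6782 and 5126. The KRT4 change at E62 was -1.37 with limma-voom, -0.058 with the replicate block, and -4.32 to 1.25 with a library left out. With a library left out, KRT7 ranged from -0.41 to 5.40 and KRT8 from -0.85 to 6.22 at E62, and KRT1 from -3.31 to 3.55 in the knockout between stages.

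Replicate numbers are shared between groups, but nothing says that they pair samples, and replicate differences of same-numbered pairs correlated between -0.122 and 0.081. With the replicate block the members called were 1 at E41, 7 at E62, 3 for the difference, 7 in wild type and 2 in the knockout. Depth limits the wild-type E62 values, where 7 members had 3 counts or fewer over both libraries.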
